A study of Rattus norvegicus with 36 samples.

Results

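The 6 genes described here, Myh7, Myl2, Myl3, Tnni1, Atp2a2 and Casq2, code for parts of the sarcomere and of the calcium store of slow muscle fibres. They were found as every probe set whose platform annotation gives the symbol of a single member of this group. That gave 12 of the 8740 probe sets that are not controls, and 6 of the 4736 genes named in this way. All 12 probe sets passed the filter on dim signals, and 1 further probe set, which carries the symbols of both Myh7 and Myh6, was not used.

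A sarcomere shortens when the heads of myosin, the thick filament motor, pull on thin filaments of actin. Calcium released from the sarcoplasmic reticulum binds troponin and opens the thin filament to myosin, and a calcium pump then returns the ion to the store. Slow fibres, which are oxidative and resist fatigue, build these parts from their own gene set, much of which the ventricle of the heart also uses. Myh7 is their beta myosin heavy chain, Myl2 and Myl3 are its regulatory and essential light chains, and Tnni1 is the inhibitory troponin subunit. Atp2a2 codes for the calcium pump SERCA2, and Casq2 for calsequestrin 2, which binds calcium inside the store. Polysomal RNA is recovered with groups of ribosomes, so the level of a transcript in it, relative to total RNA, is used as a measure of how far that transcript is loaded with ribosomes.

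The study followed rat skeletal muscle after acute resistance exercise, with RNA hybridised to 36 single-channel oligonucleotide arrays. Total RNA was taken 1 h after resisted contractions (4 arrays) and 6 h after them (8 arrays), and so was polysomal RNA (4 and 8 arrays). Muscle without contractions gave 8 arrays of polysomal RNA, called the polysomal control here, with no time in the titles and 1 h in the descriptions. A further 4 arrays of muscle without contractions have "1hr-Polysome" in their titles, while their descriptions name no polysomes. They are called the control titled 1hr polysome, and their RNA fraction is unsettled. Each group holds numbers 1 and 2, or 1 to 4, with 2 arrays per number, and a number was counted as 1 sample, which gives 18 samples. The labels name the muscle as "ta" and give no strain, sex or age. They do not say whether numbers are separate animals, so the spread behind each p-value is that between numbers and may be technical only. No group without contractions has total RNA in both its title and its description.

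The arrays had been scaled to a common trimmed mean of 801 to 801.9, so every level is relative to the other transcripts of the same RNA. The 10 skeletal muscle markers tested summed to signals of 72600 to 339000 per sample. Of 8 heart-only markers 7 were tested. Group means of Nppa and Ryr2 lay between 138 and 186, and both were at the floor of 129.5, to which lower signals were raised for the tests, in some samples (6 and 8 of 18). Tnni3 lay between 221 and 252 and Myl7 between 612 and 831. Myh6, the alpha myosin heavy chain of the heart, stood at 2290 to 5480, on a probe set whose "_f" suffix marks a family of similar sequences.

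Some arrays stood apart. Array 2a of 1 h polysomal RNA read 54.2 for the brightest Atp2a2 probe set, against 2540 to 4540 on the other 3 arrays of its group, and 1270 for Myl2, against 10200 to 13300. Array 2b of the control titled 1hr polysome read 12673 for Myh7, against 2879 to 4120 on the other 3. Its ratio of beta-actin signal at the 3′ over the 5′ end, a measure of how complete the labelled RNA is, was 1.07, against 1.99 to 2.73 on those 3 arrays and 1.22 to 1.62 on the arrays of 1 h total RNA. Number 3 of 6 h total RNA had the highest such ratios, 9.01 and 11.53, with 1.01 to 1.58 on the other arrays of that group. The values that move most with these arrays are also given without them.

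Stretches before the start of transcription are shown for Atp2a2 and Casq2, which had low polysomal values at 1 h without passing the test, and for Myl3, which had none. RefSeq's table on the GRCr8 build holds 5 of the 6 genes, without an entry for Myl2. Those of Myh7 and Tnni1 were searched but are not printed. The 150 bases before the start are printed for the other 3, 5′ to 3′ on the plus strand, with matches to the searched letters in capitals.
Atp2a2, chr12:39733369-39733518: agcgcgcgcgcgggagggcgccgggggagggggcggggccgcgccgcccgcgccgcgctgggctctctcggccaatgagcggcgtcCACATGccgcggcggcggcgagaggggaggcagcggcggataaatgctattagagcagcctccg
Casq2, chr2:192214406-192214555: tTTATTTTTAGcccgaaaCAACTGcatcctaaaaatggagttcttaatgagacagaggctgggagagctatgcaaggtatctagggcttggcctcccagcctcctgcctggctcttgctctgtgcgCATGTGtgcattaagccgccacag
Myl3, chr8:119616944-119617093: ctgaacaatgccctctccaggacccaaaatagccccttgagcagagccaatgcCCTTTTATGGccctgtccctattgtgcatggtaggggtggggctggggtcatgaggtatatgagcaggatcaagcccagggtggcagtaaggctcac
Letters were searched on both strands in the 250 bases before the start. CANNTG, the E-box that factors of the MyoD family bind, matched in all 5 windows and in 65.5% of the 33469 windows of the table. The E-box letters of Atp2a2 lie 64 to 59 bases before the start, and those of Casq2 132 to 127 and 24 to 19 bases before it. Casq2 alone of the 5 matched the MEF2 consensus, 149 to 140 bases before the start, which 3.0% of all windows hold. Myl3 alone matched the CArG box of serum response factor, 97 to 88 bases before the start (1.5% of windows). Myl3 was also the gene that matched CATTCC, the MCAT element, outside the printed stretch (12.1% of windows). Myh7 alone matched GGAAA, the core of NFAT sites (56.9% of windows), and TATAAA matched in none of the 5 (12.9% of windows). A match describes the letters and shows no binding.

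Myh7, the motor of slow fibres, was lower in polysomal than in total RNA at 6 h. Its brightest probe set read 6464, 10050, 11440 and 14880 in total RNA (numbers 1 to 4) and 4722, 3287, 3184 and 3815 in polysomal RNA. Every total sample lay above every polysomal one. The difference, polysomal minus total, was -1.47 on the log2 scale (SE 0.28, 95% interval -2.06 to -0.88, limma adjusted p = 0.00646), a level 2.77-fold lower in polysomal RNA. The second Myh7 probe set gave -1.68 (SE 0.35, adjusted p = 0.011), 3.21-fold lower, again without overlap. By their names both derive from the same sequence, as does the unused probe set that carries the symbols of Myh7 and Myh6. They correlated at r = 0.98 over the samples and are not separate evidence. Since the brightest probe set is of the "_f" kind, signal of the near-identical Myh6 transcript could enter it. The probe set annotated to Myh6 differed by -0.58 (SE 0.38, adjusted p = 0.34). It is also of the "_f" kind, so Myh7 signal could enter it, and its value sets no bound on the shared signal. The labels do not say whether both fractions came from the same muscles. If they did not, a differing share of slow fibres and a differing loading with ribosomes cannot be told apart here, and neither was tested. In the same comparison the slow fibre genes Myl2 and Tnni1 differed by -0.12 (95% interval -0.79 to 0.54) and 0.15 (95% interval -0.41 to 0.71). Myl3 and Casq2 differed by -0.21 (95% interval -1.02 to 0.59) and -0.42 (95% interval -1.08 to 0.24). Atp2a2 differed by -1.43 (95% interval -2.35 to -0.50) by its brightest probe set.

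The 6 h Myh7 difference was not the same size in all samples. Between same-numbered samples it was -0.45, -1.61, -1.85 and -1.96, and number 1 had both the lowest total and the highest polysomal signal of its group. Numbers 1 and 2 alone gave -1.03 (SE 0.34, limma adjusted p = 0.127), and numbers 3 and 4 alone gave -1.90 (SE 0.19, adjusted p = 0.13). Without number 3 of total RNA, the sample with the high actin ratio, it was -1.42 (SE 0.30, adjusted p = 0.0149).

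At 1 h Myh7 read 8325 and 7043 in total RNA and 2407 and 1945 in polysomal RNA. The groups did not overlap, and the difference was -1.82 (SE 0.39, 95% interval -2.65 to -0.99), 3.54-fold lower in polysomal RNA, with a limma adjusted p of 0.0611 that missed the threshold of 0.05. The second probe set gave -2.14 (SE 0.49, adjusted p = 0.0703). Without array 2b of the control titled 1hr polysome, which enters this comparison only through the spread shared by all groups, the adjusted p-values were 0.0233 and 0.0392. The change of the Myh7 difference from 1 h to 6 h was 0.36 (SE 0.48, 95% interval -0.66 to 1.37, adjusted p = 0.905), so no change between the times was detectable with these samples.

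Against muscle without contractions, polysomal Myh7 at 6 h differed by 0.02 (SE 0.28, 95% interval -0.57 to 0.61, limma adjusted p = 1). The polysomal control read 4967, 3449, 3244 and 3193, and its samples overlapped those of 6 h polysomal RNA. At 1 h both polysomal samples lay below both samples of the control titled 1hr polysome (3177 and 7226), and the difference was -1.15 (SE 0.39, adjusted p = 0.99). Without array 2b of that control it was -0.74 (SE 0.33, adjusted p = 0.919).

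By group mean, Myh7 ran in the order 6 h total (10300), 1 h total (7660), control titled 1hr polysome (4790), 6 h polysomal (3710), polysomal control (3650) and 1 h polysomal (2160). Without array 2b the mean of the control titled 1hr polysome was 3620. Neighbours in that order overlapped in their samples except the last pair, where the lowest polysomal control, 3193, lay above the highest 1 h polysomal sample, 2407. The plot of signal by group shows these samples for all 6 genes.

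**Figure D1:**
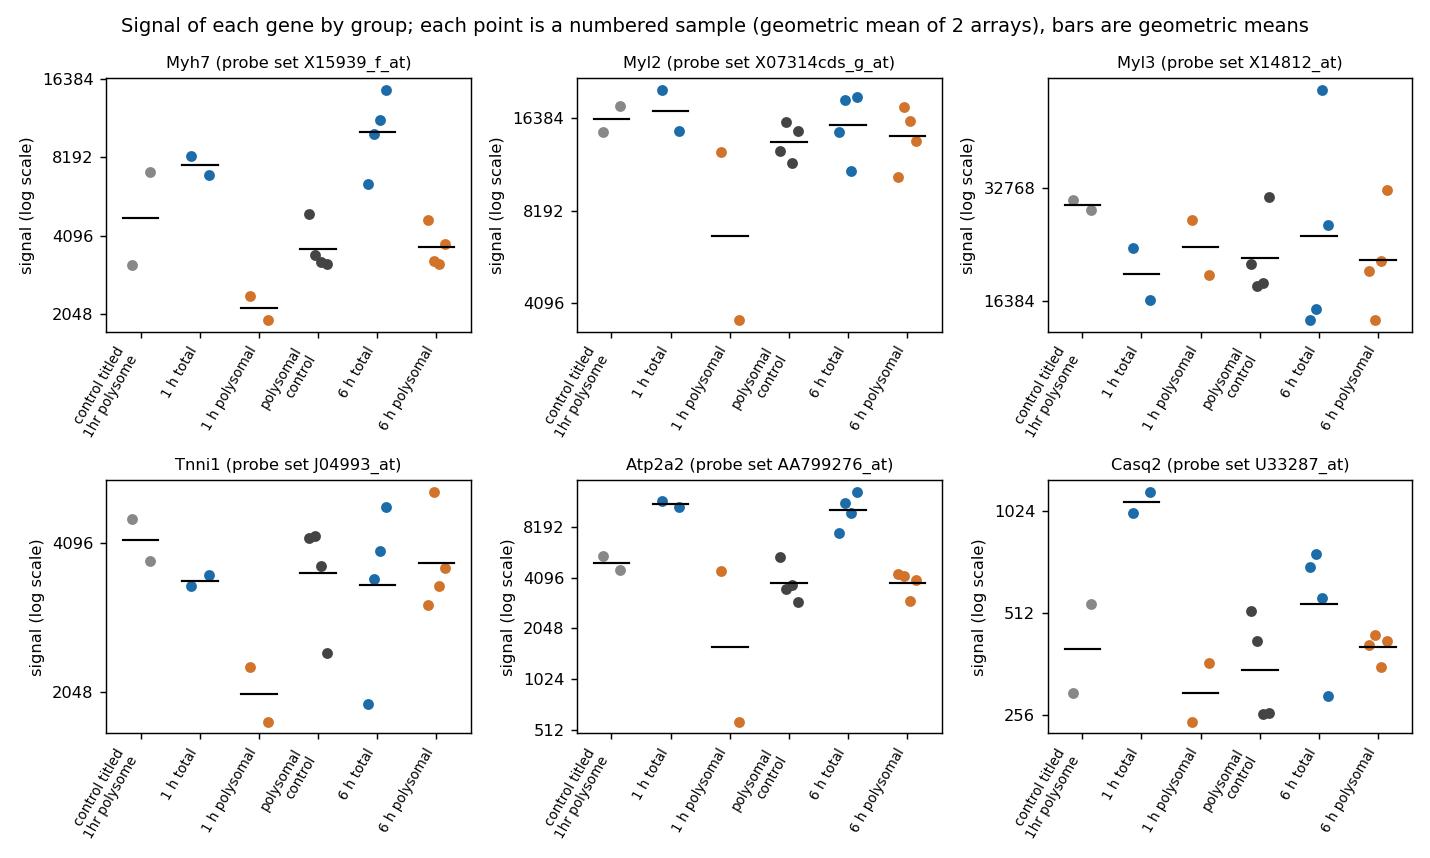
Signal of the brightest probe set of each of the 6 genes (vertical axes, log scale, arbitrary units, a separate scale per gene) in the 6 groups. Each point is a numbered sample, the geometric mean of 2 arrays, and each bar is the group's geometric mean. The 4 Myh7 samples of 6 h total RNA (6464 to 14880) sit above all 4 of 6 h polysomal RNA (3184 to 4722).

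Myl2, the regulatory light chain, did not pass the test between fractions at 6 h. It read 14710, 18730, 11050 and 19200 in total RNA and 10540, 17830, 15980 and 13810 in polysomal RNA. The groups overlapped, and the difference was -0.12 (SE 0.31, 95% interval -0.79 to 0.54, limma adjusted p = 0.82). Its 2 other probe sets gave -0.12 and -0.30. At 1 h Myl2 read 20200 and 14830 in total RNA and 12750 and 3613 in polysomal RNA, a difference of -1.35 (SE 0.44, adjusted p = 0.154). The low polysomal sample holds array 2a, and without that array the difference was -0.60 (SE 0.29, adjusted p = 0.323).

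Myl3, the essential light chain, spread widely in total RNA at 6 h. It read 14610, 15600, 59800 and 26150 there and 19760, 14620, 21040 and 32360 in polysomal RNA. The value of 59800 belongs to number 3, the sample with the high actin ratio, and the part of RNA quality in it was not tested. The difference was -0.21 (SE 0.38, limma adjusted p = 0.738), and 0.22 (SE 0.28, adjusted p = 0.7) without that sample. In 6 h polysomal RNA, numbers 1 and 2 read 14759 and 10592 for Myl3 on their arrays without a letter in the title. Their b arrays read 26452 and 20167, and the samples average both. The polysomal control did likewise, at 14951 and 12828 against 28421 and 25145. At 1 h Myl3 read 22680 and 16510 in total RNA and 26980 and 19280 in polysomal RNA. The groups overlapped, with a difference of 0.24 (SE 0.53, 95% interval -0.90 to 1.37, adjusted p = 0.93), and Myl3 was the only member whose brightest probe set had a value above 0 at 1 h.

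Tnni1, the slow form of the subunit that keeps the thin filament off between contractions, read 3354 and 3526 in total RNA at 1 h and 2307 and 1784 in polysomal RNA. The groups did not overlap, with a difference of -0.76 (SE 0.37, 95% interval -1.55 to 0.03, limma adjusted p = 0.339), and of -0.61 (SE 0.37, adjusted p = 0.443) without array 2a. At 6 h Tnni1 read 1938, 3467, 3944 and 4839 in total RNA and 3076, 5200, 3357 and 3639 in polysomal RNA. There the samples overlapped, and the difference was 0.15 (SE 0.26, 95% interval -0.41 to 0.71, adjusted p = 0.735).

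The order of groups differed among these 3 genes. Group means of Myl2 ran from 17300 in 1 h total RNA down to 6790 in 1 h polysomal RNA (11400 without array 2a), with the other groups between 13700 and 16200. Those of Myl3 ran from 29500 in the control titled 1hr polysome down to 19400 in 1 h total RNA, and those of Tnni1 from 4160 in that control down to 2030 in 1 h polysomal RNA (2250 without array 2a). For each of the 3, every group overlapped its neighbours in the order.

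Atp2a2, the pump that refills the calcium store, was low in polysomal RNA at 1 h by its brightest probe set, without passing the test. That probe set read 11610 and 10760 in total RNA and 4467 and 574 in polysomal RNA. The groups did not overlap, and the difference was -2.80 (SE 0.61, 95% interval -4.12 to -1.49), 6.98-fold lower with an array set at the floor, and a limma adjusted p of 0.0661. The sample at 574 averages array 2a, raised to the floor, with an array at 2543. Without array 2a the difference was -1.73 (SE 0.32, adjusted p = 0.0315), smaller but past the threshold. With the polysomal number 1 alone it was -1.32 (SE 0.36, adjusted p = 0.237), and with number 2 alone -4.28 (SE 0.36, adjusted p = 7.52e-05), where the lone sample is assumed to vary like the other groups.

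At 6 h the same Atp2a2 probe set read 7565, 11250, 9860 and 13200 in total RNA and 4296, 4162, 2979 and 3974 in polysomal RNA. Every total sample again lay above every polysomal one. The difference was -1.43 (SE 0.43, 95% interval -2.35 to -0.50), 2.69-fold lower, with a limma adjusted p of 0.054. The polysomal control read 5438, 3515, 3721 and 2957, and polysomal Atp2a2 at 6 h differed from it by 0.00 (SE 0.43, 95% interval -0.92 to 0.93, adjusted p = 1).

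The 4 Atp2a2 probe sets did not move together. The 3 dimmer ones gave 0.59 (SE 0.29), -0.73 (SE 0.31) and -0.01 (SE 0.36) at 1 h, and 0.13 (SE 0.21), -0.54 (SE 0.22) and -0.38 (SE 0.26) at 6 h. Their limma adjusted p-values were 0.26 or more at 1 h and 0.126 or more at 6 h. Over the 18 samples the brightest correlated with them at r = -0.11, 0.51 and 0.17, a description over samples that share groups and arrays. The low polysomal values of Atp2a2 without overlap at 6 h thus rest on a single probe set.

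By group mean, Atp2a2 ran in the order 1 h total (11200), 6 h total (10300), control titled 1hr polysome (5010), 6 h polysomal and polysomal control (both 3810), and 1 h polysomal (1600, or 3370 without array 2a). The samples of both total groups, 7565 or more, lay above all samples of the other 4 groups, the highest of which was 5530. The control titled 1hr polysome, 4533 and 5530, also lay above all 6 h polysomal samples.

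Casq2, the calcium-binding protein of the store, was high in total RNA at 1 h. It read 1011 and 1168 there, and 697.9, 764.6, 566.6 and 290.3 in total RNA at 6 h. The 1 h samples lay above all other samples of the study. The 6 h minus 1 h difference in total RNA was -1.0 (SE 0.38, limma adjusted p = 0.597), and against the control titled 1hr polysome (297 and 542.1) the 1 h total samples differed by 1.44 (SE 0.44, adjusted p = 0.243). Without array 2b of that control, which read 870 for Casq2 against 250.8 to 351.6 on the other 3, that difference was 1.78 (SE 0.41, adjusted p = 0.0377).

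Polysomal Casq2 was lower than total at 1 h by value. It read 243.9 and 363.1 in 1 h polysomal RNA, without overlap, and the difference was -1.87 (SE 0.44, 95% interval -2.80 to -0.94), 3.65-fold lower, with a limma adjusted p of 0.0716. At 6 h Casq2 read 411.5, 441.6, 354.8 and 423.8 in polysomal RNA, and the difference was -0.42 (SE 0.31, adjusted p = 0.395). There number 4 of total RNA, 290.3, lay below all polysomal samples, and without it the difference was -0.72 (SE 0.27, adjusted p = 0.0833). The change of the Casq2 difference from 1 h to 6 h was 1.45 (SE 0.54, 95% interval 0.31 to 2.59, adjusted p = 0.849).

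Group means of Casq2 ran in the order 1 h total (1090), 6 h total (544), 6 h polysomal (407), control titled 1hr polysome (401, or 317 without array 2b), polysomal control (348) and 1 h polysomal (298). Apart from 1 h total RNA, every group overlapped its neighbours. The polysomal control read 519.8, 421.7, 258.1 and 259.8, and the 6 h polysomal samples differed from it by 0.22 (SE 0.31, limma adjusted p = 1).

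**Figure D2:**
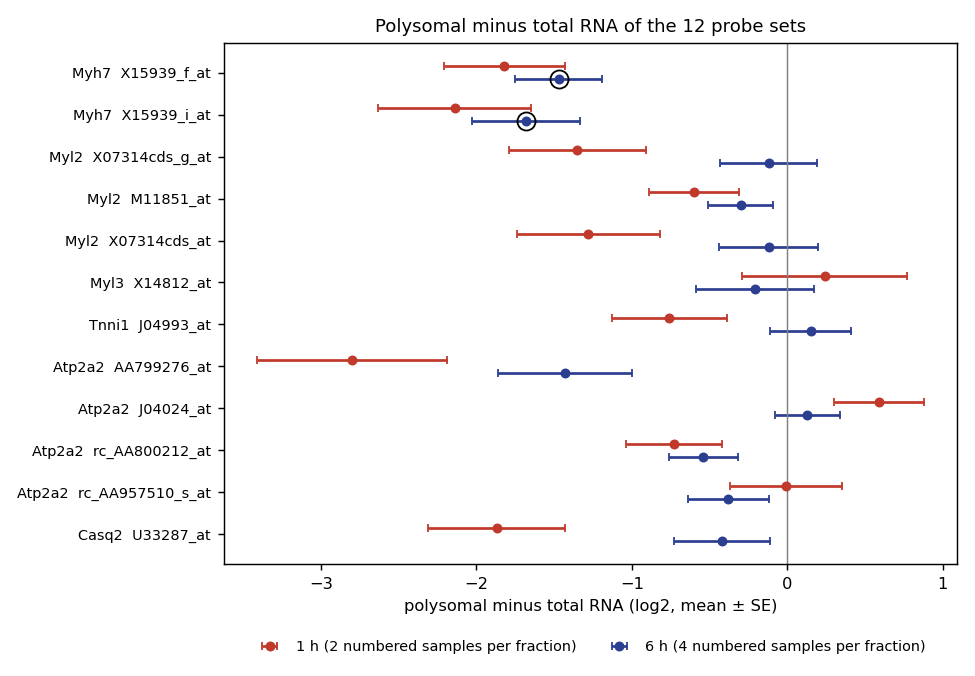
Polysomal minus total RNA (horizontal axis, log2, mean and SE of the limma fit) for the 12 probe sets of the 6 genes, at 1 h (red, 2 samples per fraction) and 6 h (blue, 4 samples per fraction). Rings mark the values that passed the test, which are both Myh7 probe sets at 6 h (-1.47 and -1.68). Values of Atp2a2 spread from -2.80 to 0.59 among its 4 probe sets at 1 h.

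Counted over the group, 1 of 6 genes, by 2 of 12 probe sets, passed the test of polysomal against total RNA at 6 h, both lower in polysomal RNA. Among all 6707 tested probe sets, 4.99% were called lower in that comparison. A lower polysomal level without overlap at 6 h was seen in 3 of 12 probe sets, the 2 of Myh7 and the brightest of Atp2a2, against 7.14% of all. The median of the 6 genes, each by its brightest probe set, was -0.32, and that of all tested probe sets was -0.163.

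At 1 h none of the 12 passed in limma, and 0.388% of all probe sets were called. An unadjusted p under 0.05 was found for 7 of 12, against 15.8% of all. By the brightest probe sets it was found for 4 of 6 genes, and probe sets of the same gene are not separate evidence. A lower polysomal level without overlap was seen in 9 of 12 probe sets, where 29.6% of all had it. The median of the 6 genes, each by its brightest probe set, was -1.59, against -0.055 for all tested probe sets. It takes Atp2a2 at -2.80, while the 3 dimmer Atp2a2 probe sets gave 0.59, -0.73 and -0.01. Without array 2a the median of the 6 genes was -1.17, 6 of 12 had an unadjusted p under 0.05 and 1 passed, the brightest of Atp2a2. The change of the fraction difference from 1 h to 6 h called 0% of all probe sets and none of the 12, with 2 of 12 and 5.55% of all at an unadjusted p under 0.05. Its value was 1.38 (SE 0.75) for Atp2a2, 1.23 (SE 0.54) for Myl2 and 0.91 (SE 0.46) for Tnni1. Without array 2a of 1 h polysomal RNA these were 0.30 (SE 0.40), 0.48 (SE 0.36) and 0.77 (SE 0.45).

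The polysomal response to contractions called none of the 12 probe sets at 6 h (0.343% of all called), and none of the 12 had an unadjusted p under 0.05, where 5.67% of all did. The 6 genes lay between -0.02 for Myl3 and 0.22 for Casq2 there. At 1 h, against the control titled 1hr polysome, limma called none of the 12 and 0% of all, with 6 of 12 and 4.46% of all at an unadjusted p under 0.05. Without array 2a that count of probe sets was 4, and without array 2b of the control it was 5. With all arrays, 4 of 6 genes had such a p by their brightest probe set. The values were -1.64 (SE 0.61) for Atp2a2, -1.26 (SE 0.44) for Myl2, -1.15 for Myh7, -1.03 (SE 0.37) for Tnni1, -0.43 (SE 0.44) for Casq2 and -0.37 (SE 0.53) for Myl3. Without array 2a they were -0.57 for Atp2a2 and -0.51 for Myl2. This comparison and the 1 h fraction comparison share the 1 h polysomal samples.

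The remaining comparisons called none of the 12 probe sets by limma. Between 1 h total RNA and the control titled 1hr polysome 1 of 12 had an unadjusted p under 0.05, against 11.1% of all (0.0745% of all called). Between 6 h and 1 h in total RNA the same count was 1, against 7.71% of all (0.0596% called). In polysomal RNA it was 6, against 5.46% of all (0% called), and 4 without array 2a. With all arrays, 4 of 6 genes had such a p there by their brightest probe set. Polysomal values at 6 h exceeded those at 1 h by 1.25 (SE 0.53) for Atp2a2, 1.07 (SE 0.38) for Myl2, 0.88 (SE 0.32) for Tnni1 and 0.78 (SE 0.34) for Myh7. Without array 2a these were 0.18, 0.32, 0.74 and 0.75. Between both controls 1 of 12 had an unadjusted p under 0.05, against 5.47% of all (0% called), and the 6 genes differed by 0.20 to 0.46.

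The actin ratio of the 3′ over the 5′ end moved with the fraction. It ran from 2.0 to 4.28 on the arrays of 1 h polysomal RNA and from 1.22 to 1.62 on those of 1 h total RNA. At 6 h it ran from 2.54 to 4.48 in polysomal RNA and from 1.01 to 1.58 in total RNA outside number 3. The arrays of the polysomal control spanned 1.58 to 3.88. Number 3 of 6 h total RNA, at 9.01 and 11.53, read 11440 for Myh7. The same ratio for Gapdh ran from 1.15 to 1.3 in polysomal and from 0.53 to 0.91 in total RNA at 1 h. At 6 h it overlapped, at 0.07 to 1.3 in polysomal and 0.54 to 1.09 in total RNA outside number 3. The part of RNA quality in the fraction differences was not tested.

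**Figure D3:**
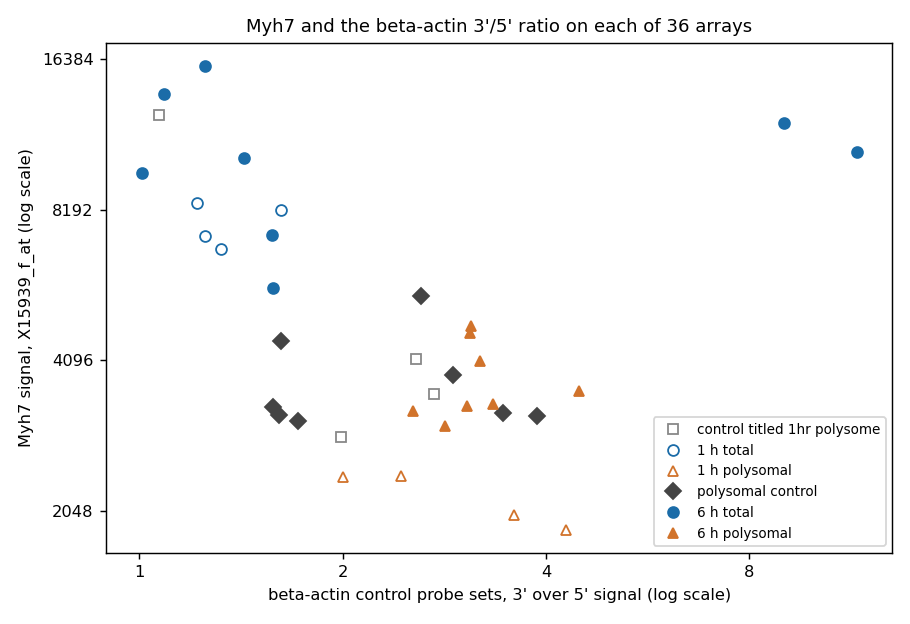
Myh7 signal of the brightest probe set (vertical axis, log scale) against the beta-actin 3′ over 5′ ratio (horizontal axis, log scale) on each of the 36 arrays, marked by group. Arrays of polysomal RNA lie at higher ratios and lower Myh7 signal than most arrays of total RNA. Array 2b of the control titled 1hr polysome lies among the total RNA arrays, at 1.07 and 12673, and both arrays of number 3 of 6 h total RNA lie far to the right, at 9.01 and 11.53.

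Summed levels of markers of some other cells did not overlap between fractions at 1 h. With 2 samples per fraction that is common. Of all single probe sets tested, 29.6% lay lower in polysomal RNA without overlap and 19.1% higher. The 5 macrophage markers tested of 8 summed to 4550 to 10100 per sample in 1 h polysomal RNA and to 3660 to 3780 in 1 h total RNA. The 5 fibroblast markers summed to 39100 to 42300 and 19800 to 30100. Both red cell markers tested of 4 summed to 30600 to 31400 and 23700 to 24700. Members of a list went both ways, with 2.0 for Dcn and -1.32 for Col3a1 among the fibroblast markers. None of the 12 markers of these 3 lists passed the test at either time, and at 6 h the summed ranges overlapped. The 7 heart-only markers summed to 3390 to 4540 in 1 h polysomal RNA and to 7020 to 7740 in 1 h total RNA, and none passed. Myh6 was the largest of them, with group means of 2290 to 5480. Its probe set is of the "_f" kind, so signal of Myh7 could enter this sum. Of the adipocyte, endothelium and smooth muscle, and nerve and Schwann cell markers, Fabp4 of adipocytes passed, higher in polysomal RNA at 6 h (1.39, SE 0.38, limma adjusted p = 0.0378). The part of these cells in the results was not tested.

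Genes of the fast fibre, the other fibre type of the muscle, were set beside the slow ones. Of 14 fast sarcomere and calcium genes listed 12 were tested, and limma called none of them between fractions at 1 h or 6 h. Their median was 0.23 at 1 h and -0.44 at 6 h, against -1.59 and -0.32 for the 6 slow genes. Each gene entered these medians by its brightest probe set. Without array 2a the 1 h medians were 0.35 and -1.17. The 2 with the smallest p at 6 h were the fast calcium-binding troponin Tnnc2 (-3.06, SE 1.10, adjusted p = 0.0941) and the fast myosin Myh1 (-1.25, SE 0.50, adjusted p = 0.129). The counterparts of the slow proteins gave -0.45 (SE 0.31) for the fast myosin Myh4, 0.76 (SE 0.39) for the light chain Myl1, 0.39 (SE 0.33) for Tnni2, -0.72 (SE 0.75) for the pump Atp2a1 and 0.17 (SE 0.23) for Casq1. Whether slow and fast genes differ from each other was not tested.

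**Figure D4:**
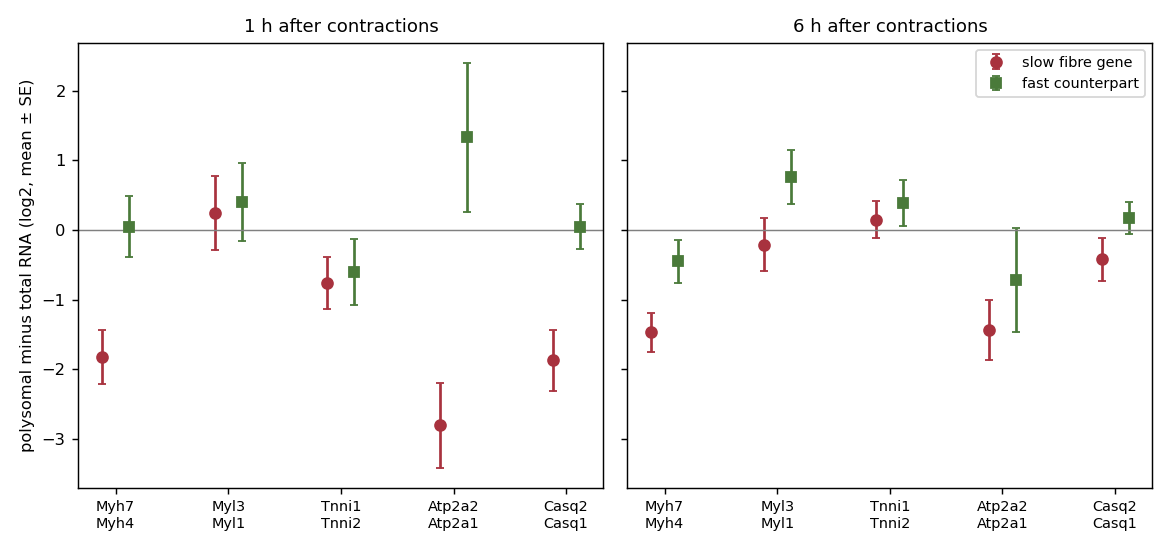
Polysomal minus total RNA (vertical axis, log2, mean and SE of the limma fit) for 5 slow fibre genes (red circles, upper name) and their fast counterparts (green squares, lower name) at 1 h and 6 h. At 6 h Myh7 stood at -1.47 and Myh4 at -0.45. The fast myosins Myh1 and Myh2, not drawn, gave -1.25 (SE 0.50) and -0.18 (SE 0.41) at 6 h. Myl2 is left out because its fast counterpart Mylpf was not measured here.

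Of 12 other slow fibre genes listed, 4 were tested. Tpm3, a slow tropomyosin of the thin filament, was higher in polysomal than in total RNA at 6 h (1.06, SE 0.29, limma adjusted p = 0.0359), opposite in sign to Myh7. The other 3, Myl6b, Myh6 and Csrp3, gave 0.35, -0.58 and 0.89 at 6 h and did not pass, and none of the 4 passed at 1 h. Of 15 genes of excitation and calcium release 7 were tested. Ppp3ca, a catalytic subunit of the calcium-activated phosphatase calcineurin, was higher in polysomal RNA at 1 h (1.2, SE 0.23, adjusted p = 0.0423) and at 6 h (0.89, SE 0.17, adjusted p = 0.00646). The remaining 6 did not pass at either time. Of them Ppp3r1, the regulatory subunit, gave -1.73 (SE 0.50, adjusted p = 0.115) and -1.2 (SE 0.36, adjusted p = 0.0501).

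Over the 18 samples the 2 Myh7 probe sets correlated at r = 0.98, and Myh7 with the brightest Atp2a2 probe set at 0.83, with Casq2 at 0.56, with Myl2 at 0.49, with Tnni1 at 0.35 and with Myl3 at 0.18. The samples share groups, so these values carry the group differences. Among 3897 other genes, those most like Myh7 over the 18 samples were Trpc1 (r = 0.874), Dlat (0.851), Aplp2 (0.826), Neb (0.823) and Nptx2 (0.817). Most like the mean of the 6 genes were Got1 (r = 0.811), Dlat (0.809), Rpl39 (0.776), Sod3 (0.759) and Gtf3c1 (0.758).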

How the data were processed

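RNA of 36 arrays was measured as 1 intensity signal per probe set, which the authors deposited on a linear scale in a table of all arrays. The values were already scaled (2% trimmed means 801 to 801.9, medians 147.6 to 266.1). Software, background correction and summary method are not given in the sources used here. Precision is limited by the count of numbered samples, 2 or 4 per group. After 59 control probe sets were left out, a floor was set at the 40th percentile of the signals (129.5) before the log2 step. Probe sets exceeding it on 4 or more arrays entered the test, 6707 in all. Both arrays of a number, which correlated at 0.886 to 0.95, were averaged. All comparisons are contrasts of 1 model over the 6 groups, without covariates, in limma 3.58.1 (R 4.3.3), two-sided, with 12 residual degrees of freedom, Benjamini-Hochberg adjustment over the 6707 and a threshold of 0.05. The script was tested on simulated data. Values given between same-numbered samples are plain differences.

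Symbols came from the platform annotation, updated through Entrez identifiers: 7006 of 8740 probe sets had 1 symbol, 308 several and 1426 none. Every member is named, by its brightest probe set with the others beside it. From the lists of other slow genes, fast counterparts and excitation and calcium release genes, those that passed are named, or else the 2 with the smallest p; the fast counterparts of the members, the remaining slow genes and Ppp3r1 were named after their values were seen. Cell markers were skeletal muscle, heart, macrophage, fibroblast, red cell, endothelium and smooth muscle, nerve and Schwann cell, and adipocyte lists. The members and lists were chosen with earlier results of these data known. Alternatives were other scalings, floors and filters, arrays as samples with the number as a random block, the replicate number as a block, and left-out numbers and arrays.

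Same-numbered samples of 6 h polysomal RNA and the polysomal control deviated together (r = 0.43 to 0.54). Unlike numbers within 1 and 2, or within 3 and 4, correlated at 0.05 to 0.37. Across these sets of numbers the values ran from -0.51 to -0.18. Both groups thus share a split of numbers 1 and 2 against 3 and 4, and its part in the pairing was not tested. The block changed no call of a member there.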

Additional observations from a re-analysis of the deposited data

Results flagged for a closer look

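Signals of the brightest probe sets were checked for a value far from the others of its group, array by array in 36 combinations of gene and group and by number in 18. Chance flags about 1 in 20 of these, and 5 met the criterion, all of them by array. Array 2a of 1 h polysomal RNA gave 3 of them: 54.2 for Atp2a2 (other arrays 2540 to 4540), 1270 for Myl2 (10200 to 13300) and 1460 for Tnni1 (2190 to 2370). Array 2b of the control titled 1hr polysome read 3560 for Atp2a2, with 5430 to 5760 on the other 3. Array 3b of 6 h polysomal RNA read 316 for Casq2, with 399 to 445 on the other 7.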

How the results depend on the processing

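The count of the 12 probe sets that passed was recomputed in 123 alternatives over the 9 comparisons, and 110 of them gave a count within 1.5 times the main one. For polysomal against total RNA at 1 h, where none passed, 2 passed after quantile normalization, 2 with the replicate block, 4 with the 36 arrays as samples and the number as a random block, 1 without array 2a of polysomal RNA (Atp2a2), and 2 without array 2b of the control titled 1hr polysome (both of Myh7), which enters only through the shared spread; the last 2 were chosen after seeing the data. Leaving out 1 number gave 0 to 3 there, 0 to 1 for the change of the fraction difference, 0 to 3 for the 1 h polysomal response and 0 to 3 for polysomal RNA at 6 h against 1 h; in each the highest count came without number 1 of 1 h polysomal RNA, which leaves the sample that holds array 2a. At 6 h the main count of 2 became 1 with numbers 1 and 2 alone (Casq2) and 0 with numbers 3 and 4 alone. Between 1 h total RNA and the control titled 1hr polysome, 1 passed with the random block and 1 without array 2b, also chosen after seeing the data. The cause was not tested. Myh7 at 6 h passed in 15 of 17 alternatives, with values from -1.90 to -1.03. Of 750 values of single genes, 64 had the other sign, none of them past the threshold. With the replicate block, limma's adjusted p was 0.0472 for Atp2a2 at 6 h, and at 1 h 0.0377 for Atp2a2 and 0.0284 for Casq2. Same-numbered deviations of 6 h total and polysomal samples correlated at 0.07 to 0.25, and unlike-numbered ones at -0.3 to 0.34. Number 1 of total RNA correlated most with number 2 of polysomal RNA (0.34), while numbers 2, 3 and 4 each correlated most with their own number. Whether numbers pair these samples is thus unsettled. Over all 6707 probe sets the calls between fractions, 26 at 1 h and 588 at 6 h, became 120 and 693 with that block, and ran from 1 to 364 and from 0 to 1099 over the alternatives. With 2 samples per 1 h group, the Tnni1 difference of -0.76 (SE 0.37) did not pass. The smallest difference detectable there was not estimated.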
